A study of Mus musculus with 22 samples.

Results

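Oxidised low-density lipoprotein (oxLDL) and oxPAPC, the oxidised form of a phosphatidylcholine that carries a palmitoyl and an arachidonoyl chain, were compared directly at the same mass concentration, over all genes measured. The comparison takes 3 arrays labelled oxLDL and 3 labelled oxPAPC, which is 6 of the 22 arrays of the series, and these 6 were chosen by their titles and not by any measured value. Every mouse behind them was a wild-type C57BL/6 animal kept on chow. The aortas were opened and each lay in its own well with 1 mL of DMEM containing 1% FBS and either oxLDL or oxPAPC at 50 ug/mL, and after 4 h the intima was taken off with collagenase and scraping and its RNA was amplified for Affymetrix arrays. A further 3 arrays of aortas held in the medium alone for 4 h serve both stimuli as the background. Another 3 arrays, of aortas given lipopolysaccharide (LPS) at 4 ng/mL for 4 h, entered the fit. All 12 arrays share 1 estimate of the spread, on which the standard errors and p-values rest. The age of the mice and the number of aortas behind each array are not given in the labels, so p-values measure only the spread between these arrays, which may be technical. The labels give the same mass per volume for both agents and do not say whether the oxLDL mass refers to protein or lipid.

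Both agents are models of what accumulates in the wall of an artery during atherosclerosis. oxLDL is a whole lipoprotein particle, with cholesterol, cholesteryl esters, many phospholipids and apolipoprotein B, after oxidation, and cells take it up through scavenger receptors. oxPAPC is a mixture of the oxidation products of a single phospholipid, a kind of product that oxLDL also carries. In endothelial cells oxidised phospholipids are known as activators of NRF2, the transcription factor of oxidant defence, and of SREBP2, the transcription factor of cholesterol synthesis, and they are known both to provoke inflammatory signals and to dampen those of other stimuli.

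Values are log2 signals after robust multi-array averaging (RMA), so 1 unit is a doubling, and every difference is oxLDL minus oxPAPC unless stated. A gene passed the test when its limma p-value, adjusted by the Benjamini-Hochberg method over the 7550 genes tested, was under 0.05. Errors after ± are standard errors of that fit, with 3 arrays in each group. Values per array are given in the order of replicates 14, 15 and 16 for oxLDL and 11, 12 and 13 for oxPAPC.

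Before the comparison, 1 array stands apart from the others of its group. Over the 7550 genes, oxPAPC replicates 11 and 12 correlated with each other at 0.9837, while replicate 13 correlated with them at 0.9554 and 0.9600 and with oxLDL replicate 14 at 0.9609. The 3 oxLDL arrays correlated with one another at 0.9711 to 0.9732. With the medium arrays, oxPAPC replicates 11 and 12 correlated at 0.9170 to 0.9264 and replicate 13 at 0.9502 to 0.9539. The oxLDL arrays did so at 0.9525 to 0.9632, so replicates 11 and 12 lay farthest from medium. Results that rest on replicate 13 are therefore given with and without it. It was singled out from these same values and, of the oxPAPC arrays, correlated most highly with each oxLDL array. Leaving it out therefore tends to widen the direct differences. The p-values without it show how far a result rests on that array and are not separate tests.

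Markers of the labelled cell type were present, alongside those of other cells of the wall. Of 17 endothelial markers on the array, 16 were above the 40th percentile of the array on all 6 arrays, and the same was true of 13 of 14 smooth muscle, 11 of 15 macrophage, 5 of 10 fibroblast and 3 of 10 lymphocyte markers. The mean of the tested endothelial markers was 8.65, 8.74 and 8.94 on the oxLDL arrays, 8.05, 8.14 and 8.47 on the oxPAPC arrays and between 8.94 and 9.10 on the medium arrays, so the oxPAPC arrays were lowest. The mean of the smooth muscle markers was 8.64, 8.59 and 8.16 with oxLDL, 8.97, 8.86 and 8.57 with oxPAPC and 7.33 to 8.33 in medium, and here the 2 stimulated groups overlapped. In such bulk samples fewer cells of a type and less RNA per cell cannot be told apart. The transcripts of 3 Y-linked genes, Kdm5d, Eif2s3y and Uty, were above the 40th percentile on all 6 arrays and none differed between the groups (limma adjusted p of 0.253, 0.631 and 0.619).

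**Figure D1:**
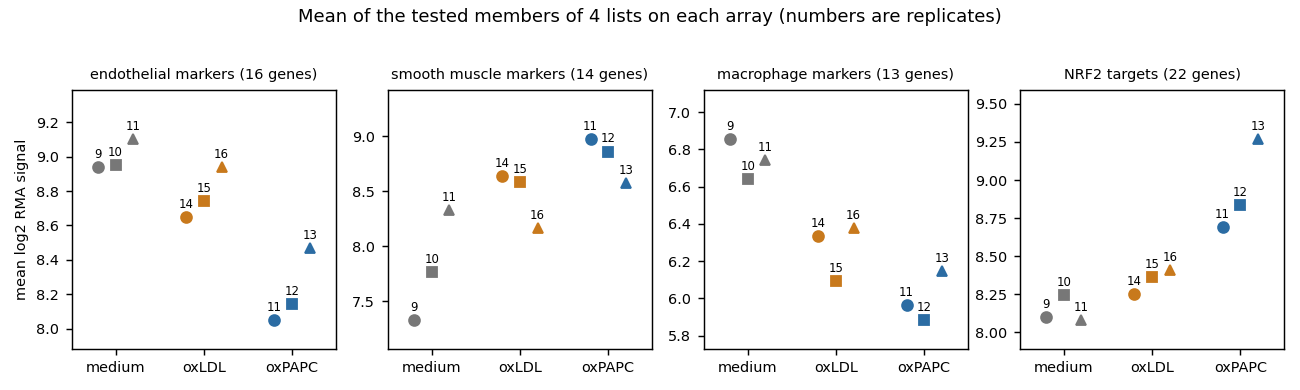
Mean log2 RMA signal of the tested members of 4 gene lists on each of the 9 medium, oxLDL and oxPAPC arrays, with the replicate number above each point and a separate vertical axis for each list. The endothelial marker mean is at 8.05 to 8.47 with oxPAPC and 8.65 to 8.94 with oxLDL, and the mean of the NRF2 targets on oxPAPC replicate 13, at 9.27, is the highest of the 9 arrays.

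The profiles after oxLDL and oxPAPC differed in 934 genes. With oxPAPC, 8 of 22 tested NRF2 targets and 7 of 12 tested sterol genes were higher than with oxLDL, led by Gclm (4.84-fold), Slc7a11 (4.61-fold) and Sqle (4.05-fold, against a signal near background with oxLDL). With oxLDL, the genes with the largest positive differences included Olr1 (5.56-fold), Il1b (4.67-fold), Cxcl12 (4.26-fold) and Cldn5 (3.91-fold). Of the 7550 genes tested, 934 passed the test, or 12.4%: 589 were higher with oxLDL (7.80%) and 345 were lower (4.57%). The groups did not overlap for 2263 genes (30.0%), and the median difference over all genes tested was 0.04. Against the 3 medium arrays, which the next 2 counts share, oxLDL differed in 212 genes (2.81%), with 56 higher (0.742%) and 156 lower (2.07%), and oxPAPC in 1606 (21.3%), with 630 higher (8.34%) and 976 lower (12.9%). When the arrays were rescaled by cyclic loess the split of the direct comparison was 473 higher and 434 lower. Without oxPAPC replicate 13 the count of differing genes was 1370 (18.1%), of which 872 were higher (11.5%) and 498 lower (6.60%), while without replicate 11 or 12 of oxPAPC it was 388 or 348, and without oxLDL replicate 16 it was 434. With the mean of the smooth muscle markers of each array as a covariate it was 479 (6.34%), of which 296 were higher (3.92%) and 183 lower (2.42%).

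Part of the NRF2 programme was higher with oxPAPC. NRF2 is held in the cytoplasm by KEAP1 until reactive lipids or oxidants modify KEAP1, and it then drives enzymes that make glutathione, recycle thioredoxin and break down heme. Of 22 tested targets, 8 were lower with oxLDL than with oxPAPC, none was higher and 14 did not pass, while 4.57% of all genes tested were lower. The median difference of the list was -0.40, against 0.04 over all genes. The 8 were Gclm, Slc7a11, Hmox1, Gclc, Srxn1, Abcc1, Cbr3 and Me1.

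Gclm, the modifier subunit of glutamate-cysteine ligase that sets the pace of glutathione synthesis, read 7.62, 8.16 and 7.95 with oxLDL and 9.74, 10.22 and 10.58 with oxPAPC. Every oxPAPC array lay above every oxLDL array, and the oxLDL arrays lay within the range of the medium arrays, 7.43 to 8.23. The difference of -2.27 ± 0.25 is 4.84-fold in favour of oxPAPC (limma adjusted p = 0.000881). A stretch of its promoter is shown because it holds the core of the antioxidant response element, the DNA sequence that NRF2 binds. It lies at chr3:122245398-122245456 on the plus strand of GRCm38.p6, from the RefSeq promoter table, and the capitals mark the core on the reverse strand, 134 to 126 bases before the annotated start:

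Gclm: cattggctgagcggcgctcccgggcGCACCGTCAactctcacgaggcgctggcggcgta

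The core was searched as TGACNNNGC on both strands in windows from 250 bases before to 50 bases after each annotated start. It was present for Gclm, Srxn1 and Me1 among the 5 of the 8 genes that had a window, for 7 of the 18 tested targets with a window, and in 12.4% of all 32851 windows. A gene was counted when any of its windows held the core, so the counts of genes and the share of windows are unlike measures.

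The partner subunit of the enzyme and the supply of its substrate followed the same pattern. Gclc, the catalytic subunit, read 9.58, 9.41 and 9.57 with oxLDL against 10.36, 10.56 and 10.97 with oxPAPC, a difference of -1.11 ± 0.17 (2.16-fold higher with oxPAPC, limma adjusted p = 0.00323). Slc7a11 encodes the cystine importer that feeds this pathway. It read 4.35, 4.96 and 5.35 with oxLDL and 6.57, 6.63 and 8.07 with oxPAPC, a difference of -2.20 ± 0.43 (4.61-fold, limma adjusted p = 0.00855), with replicate 13 far above the other two and oxLDL replicate 14 below the 40th percentile. Hmox1, heme oxygenase 1, which breaks heme down to biliverdin, iron and carbon monoxide, read 9.74, 10.30 and 10.23 with oxLDL and 11.40, 11.43 and 11.73 with oxPAPC, a difference of -1.43 ± 0.23 (2.69-fold, limma adjusted p = 0.00389). The calls of Gclm, Gclc, Slc7a11 and Hmox1 held whichever of the 9 oxLDL, oxPAPC and medium arrays was left out.

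On the brightest probe set of each gene, the other 4 targets that passed had differences of -1.05 to -0.57. Srxn1, sulfiredoxin, which repairs overoxidised peroxiredoxins, differed by -1.05 ± 0.30 (limma adjusted p = 0.0379), and its value on oxPAPC replicate 13, 11.30, stood above 10.17 and 10.31 on the other arrays of the group. Its 3 further probe sets had larger differences, -1.20, -1.80 and -2.37. Abcc1, an exporter of glutathione conjugates, differed by -0.83 ± 0.17 (limma adjusted p = 0.0115). Cbr3, a carbonyl reductase, differed by -0.78 ± 0.21 (limma adjusted p = 0.0303), and Me1, which makes cytosolic NADPH, by -0.57 ± 0.15 (limma adjusted p = 0.0273). A second probe set of Me1 had a smaller difference, -0.24. Without replicate 13, Srxn1 and Me1 no longer passed (adjusted p of 0.0746 and 0.0506).

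Other targets did not pass. Nqo1, a quinone reductase often taken as a marker of NRF2 activity, had a difference of -0.92 ± 0.36 with a 95% interval from -1.71 to -0.13 and did not pass (limma adjusted p = 0.114). Txnrd1, thioredoxin reductase, had an interval from -0.54 to 0.01, and the ferritin chains Fth1 and Ftl1 had intervals from -0.33 to 0.15 and from -0.52 to 0.38. None of the 5 tested regulators of the pathway passed, and the smallest p was that of Bach1, a repressor of Hmox1, at -0.30 ± 0.14 (limma adjusted p = 0.192). The count of targets that passed was 6 without oxPAPC replicate 13, with 1 other target, Ugdh, then higher with oxLDL (0.66, adjusted p = 0.0308). It was 4 without oxPAPC replicate 12 and 5 without oxLDL replicate 14 or 16, and 7 with the smooth muscle marker mean as a covariate.

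Part of the cholesterol synthesis pathway was also higher with oxPAPC. SREBP2 is released from the endoplasmic reticulum when membrane cholesterol is low, and it then switches on the enzymes of the mevalonate and sterol pathway and the LDL receptor. Of 12 tested members of this list, 7 were lower with oxLDL than with oxPAPC, none was higher and 5 did not pass, while 4.57% of all genes tested were lower. The median difference of the list was -0.88. The 7 were Sqle, Hsd17b7, Idi1, Stard4, Sc5d, Cyp51 and the factor's own gene Srebf2.

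Sqle, squalene epoxidase, which makes the first oxygenated intermediate of the sterol branch, read 5.41, 4.63 and 4.41 with oxLDL and 7.08, 7.05 and 6.36 with oxPAPC. The difference was -2.02 ± 0.31 (4.05-fold higher with oxPAPC, limma adjusted p = 0.00323), and the groups lay about a unit apart at their nearest arrays. On oxLDL replicates 15 and 16 Sqle was below the 40th percentile of the array, so the fold is set against a signal near background. Hsd17b7, which acts in the removal of methyl groups from lanosterol, read 6.44, 6.23 and 5.97 with oxLDL and 7.61, 7.29 and 7.12 with oxPAPC (-1.13 ± 0.21, 2.18-fold, limma adjusted p = 0.00758). Sqle and Hsd17b7 were called with each of the 9 arrays left out. Idi1, the isopentenyl diphosphate isomerase of the mevalonate pathway, read 8.48, 7.68 and 8.12 with oxLDL and 9.60, 9.20 and 9.15 with oxPAPC (-1.23 ± 0.31, limma adjusted p = 0.0241). Stard4, a carrier of cholesterol between membranes, differed by -0.90 ± 0.22 (limma adjusted p = 0.0213), and by -0.41 on a second probe set.

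Cyp51, the lanosterol demethylase, differed by -1.11 ± 0.30 (limma adjusted p = 0.0317) and Sc5d, a late desaturase of the pathway, by -0.85 ± 0.22 (limma adjusted p = 0.0280). Srebf2 differed by -1.19 ± 0.34 (limma adjusted p = 0.0404), but its mean with oxLDL lay below the 40th percentile of the arrays. Fdft1, squalene synthase, and Msmo1, a methylsterol oxidase, had negative differences that did not pass, -0.58 ± 0.22 and -0.69 ± 0.32 (limma adjusted p of 0.104 and 0.184). Ebp and Mvk had intervals on both sides of 0, from -0.24 to 0.92 and from -0.27 to 0.34.

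The promoters of the genes that passed are shown because they hold the CCAAT box, the site of NF-Y, which is known to act beside SREBP on sterol genes. The stretches come from the RefSeq promoter table of GRCm38.p6, each on the strand of its gene, and the capitals mark the box on either strand (CCAAT or ATTGG). They lie at chr13:8885536-8885590 (plus) for Idi1, chr5:4104698-4104751 (minus) for Cyp51, chr9:42264301-42264349 (minus) for Sc5d, chr1:169969341-169969395 (minus) for Hsd17b7 and chr15:82147109-82147163 (plus) for Srebf2:

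Idi1: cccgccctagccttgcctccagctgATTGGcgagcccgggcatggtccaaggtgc

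Cyp51: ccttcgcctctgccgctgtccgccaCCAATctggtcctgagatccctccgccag

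Sc5d: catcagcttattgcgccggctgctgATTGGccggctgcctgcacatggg

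Hsd17b7: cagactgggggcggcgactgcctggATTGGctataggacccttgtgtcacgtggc

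Srebf2: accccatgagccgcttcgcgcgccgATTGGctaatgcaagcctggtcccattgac

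The box was present for all 5 genes with a window among the 7 that passed, and for all 9 tested members with a window. It was present in 37.4% of all 32851 windows, which is a share of windows and not of genes. The count of 7 sterol genes was 6 without oxPAPC replicate 13, 2 without oxPAPC replicate 11 or oxLDL replicate 15, and 3 without oxPAPC replicate 12, without oxLDL replicate 16 or with the smooth muscle covariate.

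**Figure D2:**
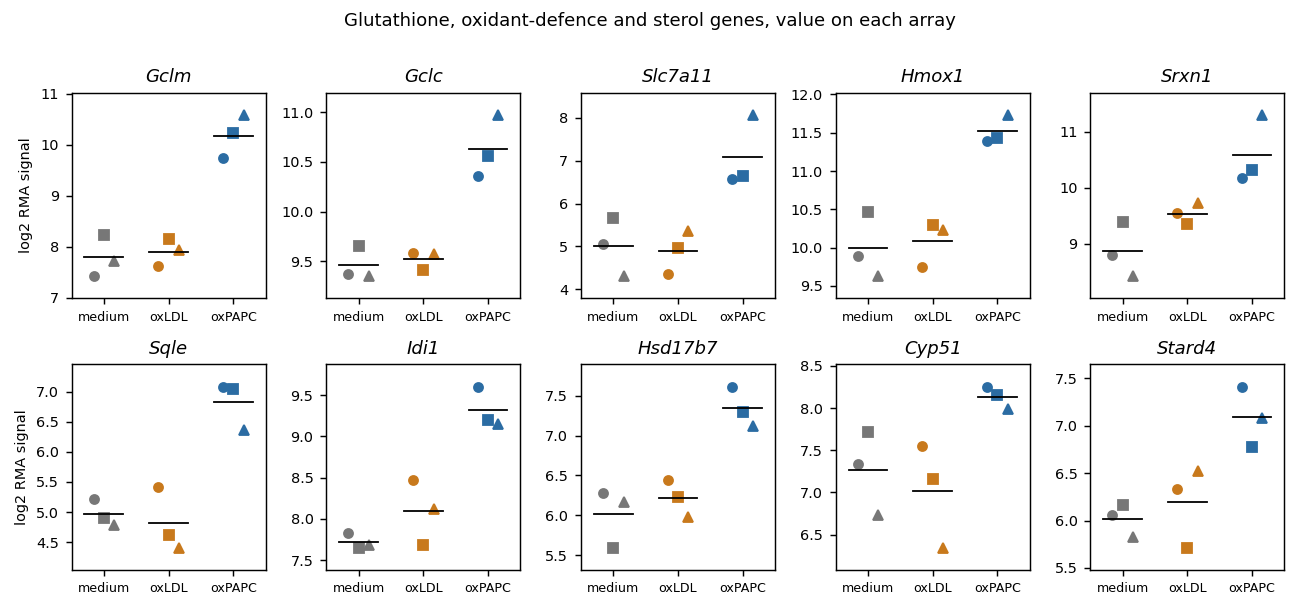
Log2 RMA signal of 10 genes on each of the 3 medium, 3 oxLDL and 3 oxPAPC arrays, with a bar at each group mean. Marker shapes are circle, square and triangle for replicates 9, 10 and 11 of medium, 14, 15 and 16 of oxLDL and 11, 12 and 13 of oxPAPC. In all 10 panels every oxPAPC array lies above every oxLDL array, and for Gclm, Gclc, Slc7a11, Hmox1 and Srxn1 replicate 13 is the highest.

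Abcg1 and Lpl, which handle cholesterol and fatty acids outside the synthesis pathway, differed in opposite directions. Abcg1, which exports cholesterol to HDL and is a target of the oxysterol receptor LXR, read 8.29, 7.99 and 8.43 with oxLDL and 7.10, 6.58 and 6.85 with oxPAPC. It was 2.63-fold higher with oxLDL (1.39 ± 0.26, limma adjusted p = 0.00761), and the oxLDL arrays lay where the medium arrays lay, at 7.70 to 8.41. Abcg1 was the single gene of 7 tested LXR targets that passed, while 12.4% of all genes tested did. Lpl, lipoprotein lipase, which frees fatty acids from lipoproteins, went the other way, with 6.30, 6.14 and 5.18 with oxLDL and 7.60, 7.24 and 7.73 with oxPAPC (-1.65 ± 0.29, 3.14-fold higher with oxPAPC, limma adjusted p = 0.00615).

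Among the largest differences in favour of oxPAPC were also Cat, Slc40a1, Tktl1 and Nox4. Cat, catalase, which splits hydrogen peroxide, read 6.76, 5.94 and 6.31 with oxLDL and 8.73, 8.83 and 8.23 with oxPAPC, with the medium arrays between them at 7.37 to 7.68. The difference was -2.26 ± 0.24 (4.79-fold, limma adjusted p = 0.000647), and both agents differed from medium, oxLDL by -1.18 ± 0.24 (limma adjusted p = 0.0235) and oxPAPC by 1.08 ± 0.24 (limma adjusted p = 0.0109). A second probe set of Cat had a direct difference of -1.06. Slc40a1, ferroportin, the exporter of iron from cells, read 5.16, 5.22 and 6.61 with oxLDL and 7.82, 7.92 and 7.73 with oxPAPC (-2.16 ± 0.31, 4.48-fold, limma adjusted p = 0.00271). Tktl1, a transketolase-like protein, read 5.97, 5.96 and 4.68 with oxLDL and 7.51, 8.12 and 7.83 with oxPAPC (-2.28 ± 0.38, 4.86-fold, limma adjusted p = 0.00507).

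Nox4, the NADPH oxidase that produces hydrogen peroxide in vascular cells, read 6.05, 6.01 and 4.31 with oxLDL, the last below the 40th percentile, and 7.89, 8.04 and 6.86 with oxPAPC. Its difference of -2.14 ± 0.51 passed with all arrays (limma adjusted p = 0.0197) and was -1.54 with the smooth muscle covariate (adjusted p = 0.0497), and the call was lost without oxLDL replicate 16 or without oxPAPC replicate 11 or 12 (largest adjusted p over the arrays left out = 0.0815). Gucy1a1 and Gucy1b1, the subunits of the nitric oxide receptor guanylate cyclase, which smooth muscle also expresses, differed by -1.53 ± 0.39 and -1.39 ± 0.31 (limma adjusted p of 0.0256 and 0.0145). Their differences with the covariate were -1.04 (adjusted p = 0.0559) and -0.98 (adjusted p = 0.0270), so Gucy1a1 no longer passed. None of the 14 tested smooth muscle markers passed, and their median difference was -0.35. The marker with the smallest p was Kcnmb1, a potassium channel subunit, at -1.11 ± 0.37 (limma adjusted p = 0.0670). Against the shared medium arrays, the median of the 14 markers was 0.66 with oxLDL, where none passed. With oxPAPC it was 1.06, where 10 were higher and none lower. Of all genes, 0.742% were higher than medium with oxLDL and 8.34% with oxPAPC.

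Of the other genes with the largest differences in favour of oxPAPC, Polg2, the accessory subunit of the mitochondrial DNA polymerase, differed by -2.18 ± 0.34, and Pcdh7, a protocadherin, by -1.90 ± 0.24 (limma adjusted p of 0.00323 and 0.00159). Rasl2-9, a Ran-like gene, differed by -2.03 ± 0.29 (limma adjusted p = 0.00271), but its mean with oxLDL was below the 40th percentile. Against medium, oxLDL differed from it by -0.29 ± 0.34, -0.66 ± 0.24 and 0.35 ± 0.29 in these 3 genes, and none passed.

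A few immediate early and heat shock genes passed the test, most of them higher with oxPAPC. Nr4a1, an orphan nuclear receptor induced within hours of stimulation, read 8.20, 8.20 and 7.85 with oxLDL and 9.45 and 9.56 on oxPAPC replicates 11 and 12, with replicate 13 below these and above all oxLDL arrays (-1.25 ± 0.19, 2.38-fold, limma adjusted p = 0.00320). Its relative Nr4a2 differed by -0.98 ± 0.17 (1.97-fold, limma adjusted p = 0.00604), and both agents raised it over medium, oxLDL by 0.73 ± 0.17 (limma adjusted p = 0.0431) and oxPAPC by 1.71 ± 0.17 (limma adjusted p = 0.000504). Jun, a subunit of AP-1, was lower with oxLDL by a smaller amount (-0.53 ± 0.14, limma adjusted p = 0.0299), and a second probe set of Jun had a difference of -0.03. In all, 3 of 19 tested immediate early genes were lower with oxLDL and 1, Ier2, was higher (0.63 ± 0.15, limma adjusted p = 0.0178), while 4.57% of all genes were lower and 7.80% higher. Without oxPAPC replicate 11 or 12, or without oxLDL replicate 14, 2 of the 19 passed.

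Among 15 tested heat shock genes, 2 were lower with oxLDL, against 4.57% of all genes, and none was higher. Dnajb4 and Dnajb1, partners of HSP70, differed by -0.83 ± 0.16 and -0.55 ± 0.13 (limma adjusted p of 0.00758 and 0.0205). Dnajb4 kept its call with each of the 9 arrays left out, while the list had 1 gene called without oxLDL replicate 15 or 16 or oxPAPC replicate 11 or 12, or with the smooth muscle covariate. Hspa1b and Cryab had intervals from -1.29 to -0.01 and from -1.37 to -0.07 and did not pass.

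The genes higher with oxLDL included a receptor for it and single inflammatory mediators. Of 13 tested scavenger receptors, 3 were higher with oxLDL and none was lower, and of 14 cytokines and chemokines 2 were higher and 1 was lower, while 7.80% of all genes tested were higher and 4.57% lower, so the cytokine counts lie near those of all genes. For Olr1, Il1b, Cxcl12 and Bcl3 the oxLDL arrays lay at or near the level in medium and the oxPAPC arrays lay below it.

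Olr1 encodes LOX-1, the main receptor of endothelial cells for oxLDL. It read 9.53, 8.65 and 8.74 with oxLDL, 8.88 to 9.37 in medium, and 5.54, 5.70 and 8.26 with oxPAPC, so replicate 13 stood close to the oxLDL arrays while the other two stood far below. The difference was 2.47 ± 0.56 (5.56-fold, limma adjusted p = 0.0166) over all arrays and 3.35 without replicate 13 (adjusted p = 0.000361). It did not pass without oxLDL replicate 14 or oxPAPC replicate 11 or 12 (adjusted p up to 0.0732), nor with the smooth muscle covariate (2.13, adjusted p = 0.0599). Against the shared medium arrays oxLDL differed by -0.18 ± 0.56 (limma adjusted p = 0.882) and oxPAPC by -2.65 ± 0.56 (limma adjusted p = 0.00909).

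Stab1, a scavenger receptor of endothelium and macrophages, read 8.54, 8.81 and 8.73 with oxLDL and 7.67, 7.59 and 7.81 with oxPAPC (1.00 ± 0.15, limma adjusted p = 0.00320). Cxcl16, a membrane chemokine that also binds oxidised lipid, read 9.23, 9.26 and 9.22 with oxLDL and 8.22, 8.12 and 8.82 with oxPAPC (0.85 ± 0.17, limma adjusted p = 0.0107). Cd36, a receptor of oxLDL and fatty acids, had a difference in the other direction that did not pass (-1.11 ± 0.40, limma adjusted p = 0.0914), and Msr1 had an interval from -0.40 to 1.23. Without oxPAPC replicate 12 only 1 of the 13 scavenger receptors passed.

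Il1b, the cytokine interleukin-1 beta, read 8.60, 7.82 and 7.89 with oxLDL, 7.49 to 8.46 in medium and 5.68, 6.28 and 5.68 with oxPAPC. The groups were separated by more than a unit, and the difference was 2.22 ± 0.28 (4.67-fold, limma adjusted p = 0.00142). Cxcl12, the chemokine SDF-1 that attracts CXCR4-bearing cells, read 9.68, 9.61 and 9.92 with oxLDL and 7.50, 7.49 and 7.96 with oxPAPC (2.09 ± 0.22, 4.26-fold, limma adjusted p = 0.000647), and a second probe set had a difference of 1.77. Both genes kept their call with each of the 9 arrays left out and with the smooth muscle covariate. Csf1, the growth factor of macrophages, was the cytokine that was higher with oxPAPC (-0.78 ± 0.21, limma adjusted p = 0.0348), and on this probe set, the brightest, it did not pass without replicate 13 (adjusted p = 0.0506). The other probe sets of Csf1 had larger differences, the farthest -1.23 and -1.43.

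Chemokines known to respond to oxidised lipids in endothelial cells did not pass the test. Ccl2, which recruits monocytes, had a difference of 0.15 with an interval from -0.59 to 0.89, and Cxcl1, which recruits neutrophils, one of -0.16 with an interval from -0.69 to 0.37. Il6 varied widely, with an interval from -0.65 to 2.28.

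Regulators of NF-kB, the transcription factor of inflammatory signalling, gave 3 genes of 14 that were higher with oxLDL, against 7.80% of all genes, and none that was lower. Bcl3, a nuclear partner of NF-kB, read 7.50, 6.87 and 7.01 with oxLDL and 5.29, 5.22 and 6.27 with oxPAPC (1.53 ± 0.28, 2.89-fold, limma adjusted p = 0.00695), and it kept its call with each of the 9 arrays left out. Tnip1, which binds the inhibitor A20, differed by 1.26 ± 0.28 (limma adjusted p = 0.0138), and Birc3, an inhibitor of apoptosis and target of NF-kB, by 1.16 ± 0.29 (limma adjusted p = 0.0225). Nfkbia and Tnfaip3, the genes of the inhibitors IkB-alpha and A20, had intervals from -0.60 to 0.20 and from -0.44 to 0.52. Only 1 gene of the list passed without oxPAPC replicate 11 or 12 or with the smooth muscle covariate. Without replicate 13 there were 5 higher and 1 lower, against 11.5% of all genes higher and 6.60% lower.

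Adhesion molecules and interferon genes depended on single arrays. Of 9 tested adhesion molecules, F11r, a junctional adhesion molecule, passed (0.60 ± 0.16, limma adjusted p = 0.0284), and none was lower with oxLDL. This single call lies near the 7.80% of all genes that were higher, and with the smooth muscle covariate no member passed. Selp and Sele, the selectins on which leukocytes roll, and Vcam1, the receptor of monocyte integrins, had differences of 1.08 ± 0.33, 0.73 ± 0.30 and 0.59 ± 0.25 that did not pass (limma adjusted p of 0.0510, 0.125 and 0.142). Without oxPAPC replicate 13 these were 1.57, 1.15 and 0.92 and all 3 passed (adjusted p of 0.000745, 0.00425 and 0.00777), so that 4 of 9 were higher, against 11.5% of all genes. As given above, leaving out this array tends to widen the direct differences. No member passed without oxLDL replicate 15 or 16 or oxPAPC replicate 11 or 12. Icam1 had an interval from -0.07 to 0.47.

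Of 17 tested interferon-response genes, Gbp2 and Gbp3, guanylate-binding proteins, were higher with oxLDL by 1.61 ± 0.42 and 1.57 ± 0.44 (limma adjusted p of 0.0284 and 0.0366) and none was lower, a count near the 7.80% of all genes that were higher. Neither passed with the smooth muscle covariate. No interferon gene passed without oxLDL replicate 14 or oxPAPC replicate 11 or 12, and 1 passed without oxLDL replicate 15 or 16 or oxPAPC replicate 13.

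**Figure D3:**
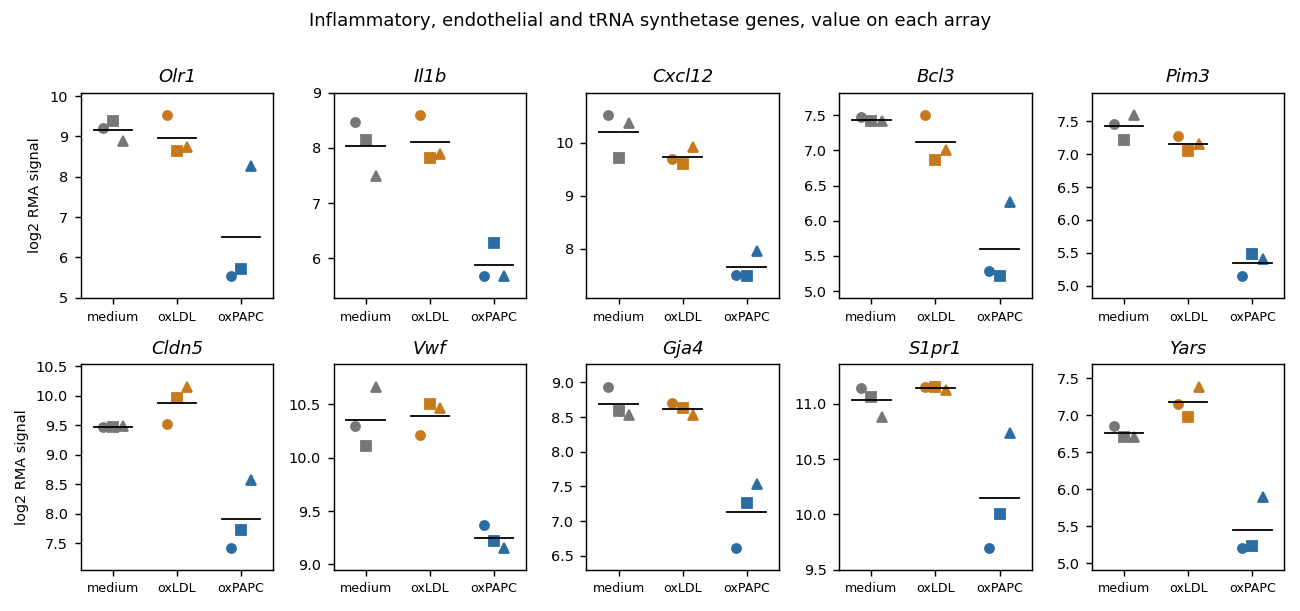
Log2 RMA signal of 10 genes on each of the 3 medium, 3 oxLDL and 3 oxPAPC arrays, with a bar at each group mean and marker shapes in replicate order (circle, square, triangle). Every oxLDL array lies above every oxPAPC array in each panel, and for Olr1 oxPAPC replicate 13, at 8.26, lies far above the other oxPAPC arrays at 5.54 and 5.70.

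Endothelial genes were higher with oxLDL than with oxPAPC in part. Of 16 tested endothelial markers, 6 were higher with oxLDL, none was lower and 10 did not pass, with a median difference of 0.56, while 7.80% of all genes tested were higher. The 6 were Cldn5, Vwf, Tie1, Cdh5, Eng and Egfl7, while Pecam1 (-0.24, interval -0.51 to 0.02), Erg (interval -0.52 to 0.49) and Emcn (interval -0.38 to 0.31) did not follow them. Against medium, the median of the 16 markers was -0.06 with oxLDL, where 1 was lower and none higher. With oxPAPC it was -0.84, where 10 were lower and none higher. Of all genes, 2.07% were lower than medium with oxLDL and 12.9% with oxPAPC. The group mean of the smooth muscle markers was 8.80 with oxPAPC and 8.46 with oxLDL, although the arrays of the groups overlapped, as given above. With the mean of each array as a covariate, 4 of the 16 endothelial markers passed as higher, against 3.92% of all genes.

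Cldn5, the claudin that seals endothelial tight junctions, read 9.52, 9.96 and 10.15 with oxLDL and 7.43, 7.73 and 8.57 with oxPAPC, and the medium arrays were close together at 9.47 to 9.49. The difference was 1.97 ± 0.30 (3.91-fold, limma adjusted p = 0.00305). Vwf, the clotting factor that endothelial cells store and secrete, read 10.21, 10.50 and 10.47 with oxLDL and 9.37, 9.22 and 9.16 with oxPAPC (1.14 ± 0.17, 2.21-fold, limma adjusted p = 0.00271). Cdh5, the cadherin of endothelial junctions, read 10.29, 10.65 and 10.73 with oxLDL and 9.41, 9.53 and 10.27 with oxPAPC (0.82 ± 0.22, limma adjusted p = 0.0304). Tie1, an orphan receptor of the angiopoietin system, differed by 1.26 ± 0.31 (limma adjusted p = 0.0225). Cldn5, Vwf, Eng and Egfl7 kept their call with each of the 9 arrays left out, and Tie1 and Cdh5 lost theirs without oxLDL replicate 15 or 16 or oxPAPC replicate 11 or 12.

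Among 25 tested genes of endothelial quiescence, Notch signalling and nitric oxide, 6 were higher with oxLDL and 2, the Gucy1a1 and Gucy1b1 named above, were lower, while 7.80% of all genes were higher and 4.57% lower. Tie1, already counted among the endothelial markers, is also in this list. Against medium, none of the 25 passed with oxLDL. With oxPAPC 4 were higher and 8 lower, against 8.34% and 12.9% of all genes. Gja4, connexin 37 of arterial gap junctions, read 8.71, 8.63 and 8.52 with oxLDL and 6.62, 7.26 and 7.54 with oxPAPC (1.48 ± 0.21, 2.79-fold, limma adjusted p = 0.00271). Gja5, connexin 40, differed by 1.19 ± 0.25 (limma adjusted p = 0.0115) and S1pr1, the sphingosine 1-phosphate receptor that tightens the endothelial barrier, by 1.00 ± 0.21 (limma adjusted p = 0.0127). On the S1pr1 arrays oxLDL was nearly constant at 11.13 to 11.16 while oxPAPC spread over 9.70, 10.01 and 10.74. Notch1, the receptor upstream of arterial identity, was higher by 0.55 ± 0.13 (limma adjusted p = 0.0172), but a second probe set of Notch1 had a difference of 0.02. Thbd, thrombomodulin, the anticoagulant receptor of thrombin, was higher by 0.65 ± 0.14 (limma adjusted p = 0.0145).

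The flow-responsive factors Klf2 and Klf4, which hold endothelium quiescent, did not pass, with intervals from -0.71 to 1.01 and from -0.39 to 0.18. Nos3, the endothelial nitric oxide synthase, had a difference of 0.92 ± 0.42 that did not pass (limma adjusted p = 0.175) and passed without oxPAPC replicate 13 (1.50, adjusted p = 0.00893). The quiescence list had 8 genes called with all arrays, 3 without oxLDL replicate 16 or oxPAPC replicate 11, and 1 without oxPAPC replicate 12. Of the clotting list, Vwf, Thbd and Plau, the urokinase plasminogen activator (1.09 ± 0.20, limma adjusted p = 0.00720), were higher with oxLDL and none of the 9 tested genes was lower. In comparison, 7.80% of all genes were higher and 4.57% lower. Vwf is also in the endothelial marker list and Thbd in the quiescence list, so both calls were already counted above. Pgf, placental growth factor, was higher with oxLDL (1.31 ± 0.25, limma adjusted p = 0.00812) although its mean with oxPAPC was below the 40th percentile, and Fgf2 was lower (-0.85 ± 0.20, limma adjusted p = 0.0188).

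**Figure D4:**
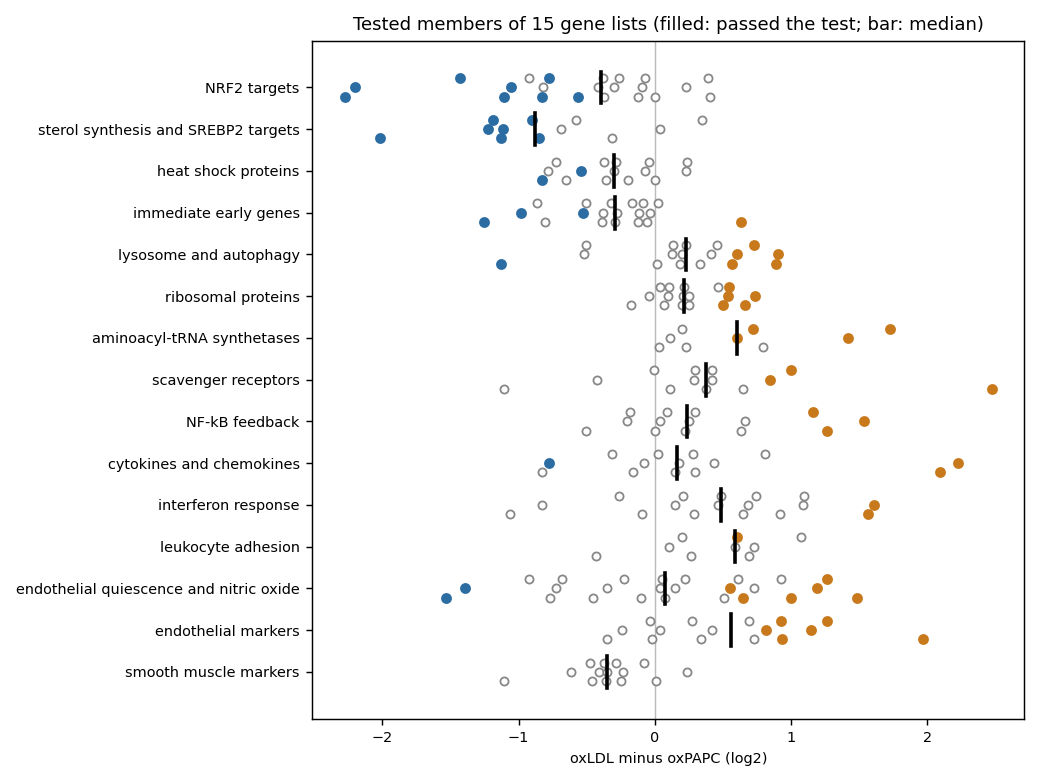
Difference oxLDL minus oxPAPC on the log2 scale for each tested member of 15 gene lists; orange points passed the test as higher with oxLDL, blue points passed as lower, open points did not pass, and the bar is the median of the list. The NRF2 and sterol lists hold 8 and 7 blue points and no orange one, and the endothelial marker list holds 6 orange points and no blue one.

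Some of the enzymes that load amino acids onto tRNA were higher with oxLDL than with oxPAPC. Of 9 tested aminoacyl-tRNA synthetases, 4 were higher, none was lower and 5 did not pass, with a median difference of 0.60, while 7.80% of all genes tested were higher. Against medium, the median was -0.12 with oxLDL, where 1 was lower and none higher. With oxPAPC it was -0.88, where 5 were lower and none higher. Of all genes, 2.07% were lower than medium with oxLDL and 12.9% with oxPAPC. Yars, for tyrosine, read 7.16, 6.98 and 7.38 with oxLDL and 5.21, 5.23 and 5.90 with oxPAPC (1.72 ± 0.21, 3.30-fold, limma adjusted p = 0.00131). Aars, for alanine, read 7.89, 8.16 and 8.26 with oxLDL and 6.57, 6.42 and 7.07 with oxPAPC (1.42 ± 0.26, 2.67-fold, limma adjusted p = 0.00741). Both kept their call with each of the 9 arrays left out. Gars and Eprs, for glycine and for glutamate and proline, differed by 0.72 ± 0.19 and 0.60 ± 0.17 (limma adjusted p of 0.0317 and 0.0383).

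These genes are known targets of ATF4, the transcription factor of amino acid shortage. Stretches of 2 of their promoters are shown because they hold the core of the element that ATF4 binds together with C/EBP proteins. They lie at chr8:111033705-111033762 (plus) for Aars and chr6:55037946-55038000 (plus) for Gars, from the RefSeq table of GRCm38.p6, with the core on the reverse strand in capitals:

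Aars: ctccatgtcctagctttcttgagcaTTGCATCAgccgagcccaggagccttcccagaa

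Gars: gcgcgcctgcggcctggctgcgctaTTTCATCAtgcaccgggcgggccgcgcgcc

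The core, searched as TGATGNAA on both strands, was present for Aars, Gars and Yars among the 4 genes that passed, for 4 of the 6 tested synthetases with a window and in 3.97% of all windows. That last share counts windows and not genes. Without oxPAPC replicate 13 there were 5 synthetases called, and without any single oxLDL array or oxPAPC replicate 11 or 12, or with the smooth muscle covariate, there were 2.

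The wider ATF4 list gave few calls. Of 23 tested genes, Slc7a5, an importer of large amino acids, was higher with oxLDL (0.72 ± 0.17, limma adjusted p = 0.0172), Vldlr, a lipoprotein receptor, was lower (-1.15 ± 0.32, limma adjusted p = 0.0348), and 21 did not pass. Of all genes tested, 7.80% were higher and 4.57% lower. Asns, asparagine synthetase, had an interval from -0.05 to 1.16, and Atf4 itself from -0.43 to 0.19. Without oxPAPC replicate 13 there were 6 genes higher and 1 lower, among them Ddit3, the stress factor CHOP (0.88, adjusted p = 0.0125), and Shmt2, a mitochondrial enzyme of serine metabolism (1.03, adjusted p = 0.00807). In that fit 11.5% of all genes were higher and 6.60% lower. No gene of this list passed without oxLDL replicate 16 or oxPAPC replicate 11 or 12, or with the smooth muscle covariate. Without oxLDL replicate 15, 1 passed.

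Ribosomal protein genes had small differences toward oxLDL. Of 17 tested, 5 were higher with oxLDL and none was lower, while 7.80% of all genes were higher, and the median of the list was 0.21 against 0.04 over all genes. Against medium, the median was 0.03 with oxLDL, where none passed. With oxPAPC it was -0.23, where 5 were lower and none higher, while 12.9% of all genes were lower. Rps9 and Rpl13 differed by 0.74 ± 0.17 and 0.66 ± 0.15 (limma adjusted p of 0.0153 and 0.0148). None of the 17 passed without oxPAPC replicate 11 or 12, 1 passed without oxLDL replicate 16 or with the smooth muscle covariate, and 3 passed without oxLDL replicate 14 or 15.

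Of 17 tested lysosomal and autophagy genes, 5 were higher with oxLDL, 1 was lower and 11 did not pass, while 7.80% of all genes were higher and 4.57% lower. Against medium, the median was 0.06 with oxLDL, where 2 were lower and none higher. With oxPAPC it was -0.31, where 5 were lower and none higher. Of all genes, 2.07% were lower than medium with oxLDL and 12.9% with oxPAPC. The 5 included Ctsz, a cathepsin (0.90 ± 0.17, limma adjusted p = 0.00758), Hexa, a subunit of hexosaminidase (0.89 ± 0.18, limma adjusted p = 0.0104), and Npc2, which passes cholesterol out of the lysosome (0.56 ± 0.13, limma adjusted p = 0.0188). Gla, alpha-galactosidase A, which splits glycolipids in the lysosome, was the gene of the list that was lower, with 7.17, 7.18 and 7.52 with oxLDL, 8.43, 8.54 and 8.28 with oxPAPC and 8.16 to 8.30 in medium (-1.13 ± 0.14, 2.18-fold, limma adjusted p = 0.00135). The list had 3 genes called without oxLDL replicate 16 or oxPAPC replicate 12. Lyz2, lysozyme, was the single macrophage marker of 13 tested that passed. It was higher with oxLDL (1.05 ± 0.19, limma adjusted p = 0.00720), as were 7.80% of all genes. The mean of these 13 markers was 6.33, 6.10 and 6.38 with oxLDL and 5.96, 5.88 and 6.15 with oxPAPC, so the groups overlapped, and its part in the differences of Il1b, Stab1 and the lysosomal genes was not tested. Against medium, 1 of the 13 markers was lower with oxLDL and 8 were lower with oxPAPC, and none was higher with either.

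For Gla and 3 others of the named genes, Rbbp6, Fbxo33 and Hba-a2, oxLDL passed the test against medium and oxPAPC did not. Rbbp6, a ubiquitin ligase that binds the retinoblastoma protein, read 7.89, 7.38 and 7.13 with oxLDL, 9.27, 9.51 and 9.12 with oxPAPC and 8.87 to 9.03 in medium, while a second probe set of Rbbp6 had a smaller direct difference, -0.76. Its difference from medium was -1.47 ± 0.19 with oxLDL (limma adjusted p = 0.00538) and 0.36 ± 0.19 with oxPAPC (limma adjusted p = 0.179). For Gla the same differences were -0.93 ± 0.14 (limma adjusted p = 0.00793) and 0.19 ± 0.14 (limma adjusted p = 0.334). Fbxo33, a substrate receptor of ubiquitin ligases, differed from medium by -1.29 ± 0.27 with oxLDL (limma adjusted p = 0.0259) and by 0.75 ± 0.27 with oxPAPC (limma adjusted p = 0.0644). Hba-a2, an alpha globin, read 9.39, 9.17 and 8.87 with oxLDL and 10.17, 10.31 and 10.01 with oxPAPC (-1.02 ± 0.15, limma adjusted p = 0.00301), with medium at 9.86 to 10.05. Hba-a2 was the single one of 6 tested erythroid and platelet markers that passed the direct comparison, while 12.4% of all genes tested did.

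Trub2, a pseudouridine synthase of mitochondrial RNA, was moved by both agents in opposite directions. It read 8.47, 8.34 and 8.56 with oxLDL, 6.78, 6.15 and 6.69 with oxPAPC and 7.34 to 7.54 in medium, so the 3 groups did not overlap. The direct difference was 1.92 ± 0.19 (3.78-fold, limma adjusted p = 0.000622), made of 1.01 ± 0.19 above medium with oxLDL (limma adjusted p = 0.0198) and -0.90 ± 0.19 with oxPAPC (limma adjusted p = 0.00853). A second probe set of Trub2 had a direct difference of 1.80.

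**Figure D5:**
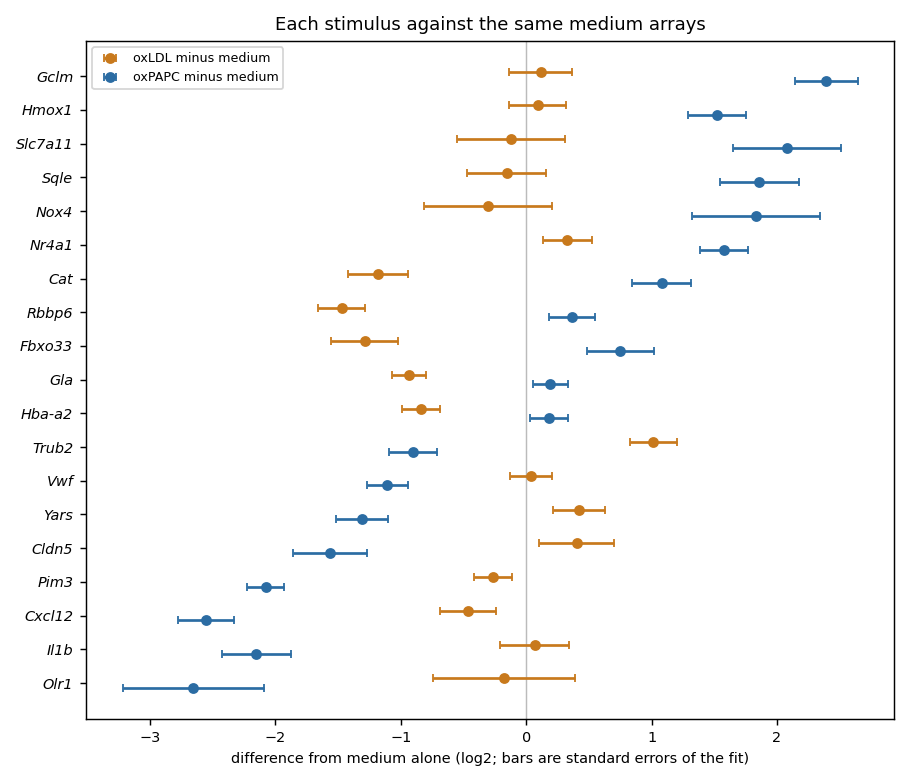
Difference of oxLDL (orange) and of oxPAPC (blue) from the same 3 medium arrays for 19 genes, on the log2 scale, with bars for the standard error of the fit. For Gclm, Hmox1, Slc7a11 and Sqle the blue points lie at 1.52 to 2.39 and the orange ones near 0, while for Rbbp6, Fbxo33, Gla and Hba-a2 the orange points lie at -0.84 to -1.47.

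Of the remaining genes with the largest differences in favour of oxLDL, Pim3, a kinase of growth and survival signalling, had the smallest p of all 7550 genes. It read 7.27, 7.05 and 7.16 with oxLDL and 5.15, 5.48 and 5.41 with oxPAPC (1.81 ± 0.15, 3.52-fold, limma adjusted p = 0.000323), and the call held with each of the 9 arrays left out. Nptx1, a pentraxin, and Lmo7, a protein of cell junctions, differed by 1.82 ± 0.42 and 1.80 ± 0.44 (limma adjusted p of 0.0172 and 0.0212), and as for Olr1 the oxPAPC replicate 13 read near the oxLDL arrays, at 9.38 and 9.19. Without that replicate the differences were 2.47 and 2.49. Igfbp3, which binds insulin-like growth factors, Ido2, an enzyme of tryptophan breakdown, and Rassf2, a Ras-association protein, were higher with oxLDL by 1.83 ± 0.52, 1.77 ± 0.33 and 1.75 ± 0.33, but their means with oxPAPC were below the 40th percentile. Rtp4, an interferon-induced chaperone of receptors, was higher by 1.74 ± 0.37 (limma adjusted p = 0.0121) and did not pass without oxPAPC replicate 11.

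Lists of energy metabolism, damage and growth genes gave 2 to 4 calls each, against 7.80% of all genes higher and 4.57% lower. Of 19 tested glycolysis genes Pfkfb3, a regulator of glycolytic flux, and Tpi1 were higher with oxLDL (1.05 ± 0.15 and 0.79 ± 0.23, limma adjusted p of 0.00271 and 0.0437), and of 27 oxidative phosphorylation genes Atp5b, Ndufb5 and Cyc1 were. Of 18 p53 and apoptosis genes, Aen, a nuclease, Ei24 and the death receptor Fas were higher with oxLDL and Gadd45b, a stress sensor, was lower (-1.26 ± 0.27, limma adjusted p = 0.0135). Of 10 cell cycle genes, Ccnd1, cyclin D1, was higher (1.02 ± 0.26, limma adjusted p = 0.0245), while Pcna and Ccne1 were lower (-0.49 ± 0.13 and -0.43 ± 0.12, limma adjusted p of 0.0344 and 0.0396). Single genes were higher with oxLDL among 17 tested ER chaperones (Dnajb11), 12 basement membrane genes (Nid1) and 14 clock genes (Cry1). Lower with oxLDL were single genes among 7 tested metal handling genes (Slc40a1) and 9 MAP kinase phosphatase and Sprouty genes (Dusp1). Among the 15 tested fatty acid genes Fabp5 was higher and Lpl lower, with a second probe set of Fabp5 at 0.27. No gene passed among the 8 prostaglandin enzymes, where Ptgis, prostacyclin synthase, had the smallest p (0.44 ± 0.18, limma adjusted p = 0.131), or the 17 fibrillar matrix genes, where Lox, lysyl oxidase, did (-0.51 ± 0.17, limma adjusted p = 0.0647). None passed either among the 9 fibroblast, 3 lymphocyte, 2 nerve and single adipocyte markers tested, and the intervals of Serpinf1 (-0.11 to 1.70), Cd3d (-0.38 to 0.21), S100b (-0.43 to 0.93) and Fabp4 (-0.16 to 0.71) are those of the gene with the smallest p in each.

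The calls of 44 of the 90 named genes that passed held with each of the 9 oxLDL, oxPAPC and medium arrays left out in turn. Those higher with oxLDL were Il1b, Cxcl12, Cldn5, Trub2, Pim3, Ido2, Rassf2, Yars, Aars, Abcg1, Stab1, Ctsz, Hexa, Bcl3, Gja4, Pgf, Vwf, Plau, Pfkfb3, Nid1, Aen, Eng, Egfl7 and Lyz2. Those higher with oxPAPC were Tktl1, Gclm, Cat, Slc7a11, Polg2, Slc40a1, Fbxo33, Rasl2-9, Sqle, Pcdh7, Rbbp6, Gclc, Hmox1, Dnajb4, Hsd17b7, Lpl, Gla, Nr4a1, Nr4a2 and Hba-a2. Among these, further probe sets of Nid1 and Aen had a difference in the opposite direction (-0.17 and -0.47) and another of Aen one of 0.31, while those of Pfkfb3 and Eng were smaller (0.28 and 0.31) than on the brightest probe set. The other 46 lost their call in at least 1 of these fits, with a largest limma adjusted p between 0.0511 and 0.179 for each gene. Of the 90, 49 passed without oxPAPC replicate 11, 48 without oxPAPC replicate 12, 56 without oxLDL replicate 16, 66 and 69 without oxLDL replicates 15 and 14, and 87 without oxPAPC replicate 13. Because the 90 were named for large differences or small p-values in these same arrays, these counts do not stand for all genes that passed.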

How the data were processed

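The authors' deposited values are log2 signals from RMA (tool named: affy), as the submitters' processing notes record; versions and whether all 22 arrays were normalized together are not given in the sources used here. Probe sets were named from the platform annotation, with symbols brought to the RefSeq GRCm38.p6 table: of 22626, 18003 had 1 symbol, 287 several and 4336 none. The brightest probe set stood for each of 11807 genes, and 7550 genes above the 40th percentile of the array on at least 3 of 12 arrays were tested. The fit in limma 3.58.1 (R 4.3.3) took the 12 incubated arrays (medium, LPS, oxLDL and oxPAPC, 3 each), with empirical Bayes variances, and was tested on simulated data. Of 4150 genes with several probe sets, called genes had 601 further probe sets above the filter, and 477 of these had the same direction. Of 39 gene lists with 657 entries, 565 entries were on the array.

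Named were, of the genes that passed, the 12 with the largest positive and the 12 with the largest negative difference, up to 4 members of each list that passed (those of smallest p, or the member of smallest p where none passed) and the sex-linked transcripts. Other list members, and the promoter stretches shown, were chosen after their values were seen. The members and lists were chosen with earlier results of these data known. Signals of different probe sets are not compared with each other. The number of arrays limits the precision.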

Additional observations from a re-analysis of the deposited data

How the results depend on the processing

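With 3 arrays in each group the counts moved with the arrays used. The 934 genes that passed (589 higher and 345 lower with oxLDL) became 543 (329 and 214) when the 6 oxLDL and oxPAPC arrays were fitted alone, and 479 (296 and 183) once the smooth muscle marker mean entered the fit, of which 453 were shared with the 934; that covariate widened the standard errors by a median factor of 1.12. Leaving out 1 array at a time gave 348 to 1370 genes (216 to 872 higher and 132 to 498 lower), with 848 of the 934 kept without oxPAPC replicate 13, the array that stands apart from its group, and 342 without oxPAPC replicate 12. Cyclic loess gave 907 genes, median centring 891, no filter 915 of 11807, the mean of all probe sets 863 and a variance trend 1027. Of the 90 named genes that passed, 44 passed with each array left out, 42 under all alternatives, and none reversed. These 90 were named for large differences or small p-values in these same arrays, so their shares do not stand for all 934 genes. Without oxPAPC replicate 12, 48 of the 90 kept their call, and 342 of the 934 did. Median centring moved the median of oxPAPC minus medium over all genes from -0.05 to 0.09. No paired analysis was possible because the oxLDL and oxPAPC arrays share no replicate number.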
